A study of Mus musculus with 16 samples.

Results

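The histone genes were described across cortical astrocytes and endothelial cells (ECs) of the mouse. The set comprised every protein-coding gene of the count table whose symbol named a linker histone H1 (*H1f* followed by a number), a core histone of the gene clusters (*H2ac*, *H2bc*, *H3c* and *H4c*), or a histone variant (*H2ax*, *H2az1*, *H2az2*, *H3f3a*, *H3f3b*, *Macroh2a1* and *Macroh2a2*). It held 80 of the 56980 genes listed. Membership was set by name alone and not by any measured value.

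RNA sequencing had been performed on astrocytes and ECs isolated from the cortex of 8 mice aged 14 days (P14), with 1 library per animal and cell type and 4 animals per genotype. The study asked how loss of HMGB1 from newborn astrocytes affects astrocytes and the neighbouring ECs. All animals carried both alleles of *Hmgb1* flanked by loxP sites (*Hmgb1* flx/flx, from a B6 background). Mutants also carried the *Aldh1L1-Cre/ERT2* BAC transgene (C57BL/6N-congenic background), which places a tamoxifen-inducible Cre under an astroglial promoter, and the littermates labelled wild type did not. The pups of both genotypes were given tamoxifen in the first days of life, so the controls shared both the floxed alleles and the drug. Littermates of both sexes were used. Myelin and cells carrying CD45 were first depleted on magnetic beads, ECs were then selected through CD31 and astrocytes through ACSA-2. Wild-type animals are numbered 5, 9, 19 and 22 and mutants 2, 13, 18 and 21, and values per library are given in that order.

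Histones are the proteins around which DNA is wrapped. A nucleosome core holds pairs of H2A, H2B, H3 and H4, and linker histone H1 binds where the DNA enters and leaves it. The clustered genes supply most histone protein during DNA replication, and their transcripts usually end at a short stem-loop in place of a poly(A) tail. The variants H2A.X, H2A.Z, H3.3 and macroH2A and the linker histones H1.0 and H1.10 are encoded by genes outside the clusters, and all but *H2ax*, whose transcripts can take either form, usually give polyadenylated transcripts that are also made in cells that do not divide. HMGB1 is an abundant nuclear protein that bends DNA and binds nucleosomes, where it competes with H1.

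The stem-loop divides the set, so the element is shown for 4 members that recur below, as found in the GRCm39 genome after each stop codon. Capitals mark the paired bases of the stem and lower case the loop.
H2bc4: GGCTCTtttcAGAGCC
H3c15: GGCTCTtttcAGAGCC
H2ax: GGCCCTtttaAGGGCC
H4c9: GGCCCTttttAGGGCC

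These elements lie at chr13:23868630-23868645 (plus strand) for *H2bc4*, chr3:96145801-96145816 (minus) for *H3c15*, chr9:44246537-44246552 (plus) for *H2ax*, and chr13:22225136-22225151 (minus) for *H4c9*, all on GRCm39. A match of this 16-base form within 200 bases after the stop codon was present in 67 of the 80 histone genes. Among all 21535 protein-coding genes scanned, 132 held one (0.613%). All 4 genes shown are annotated with transcripts that run on past the stem-loop, and *H2ax* was the only one of 12 genes outside the clusters to hold a match.

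Promoters of 3 members are shown next, because these genes reappear in the comparisons below and their upstream bases hold the motifs that recur in the set. Capitals mark the octamer ATTTGCAT, the letters TATAAA and the letters CCAAT on either strand. All are GRCm39 sequence before the RefSeq start of the gene, *H2bc8* at chr13:23755395-23755569 (plus strand), *H1f2* at chr13:23922615-23922789 (plus) and *H1f4* at chr13:23806542-23806716 (minus).
H2bc8: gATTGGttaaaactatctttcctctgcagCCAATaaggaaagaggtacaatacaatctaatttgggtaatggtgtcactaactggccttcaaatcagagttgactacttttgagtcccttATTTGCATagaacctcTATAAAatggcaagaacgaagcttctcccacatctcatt
H1f2: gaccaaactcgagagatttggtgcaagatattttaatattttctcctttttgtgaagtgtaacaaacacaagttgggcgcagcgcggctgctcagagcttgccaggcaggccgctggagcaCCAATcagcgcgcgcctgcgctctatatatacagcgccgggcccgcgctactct
H1f4: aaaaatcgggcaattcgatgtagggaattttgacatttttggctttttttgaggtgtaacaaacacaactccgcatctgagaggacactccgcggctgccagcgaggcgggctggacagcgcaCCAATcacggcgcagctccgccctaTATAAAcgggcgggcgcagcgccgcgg

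In *H2bc8* the octamer, the site known in histone H2B promoters, began 59 bases before the start and TATAAA 43 bases before it. Neither linker histone promoter held the octamer, and both held CCAAT, 54 bases before the start in *H1f2* and 52 in *H1f4*. In windows of 300 bases around the start of each gene (RefSeq, GRCm38.p6), with both strands searched, 68 members had an entry. The octamer was present in 14 of these 68 (20.6%) against 1.99% of all 26742 genes, TATAAA in 35 (51.5%) against 15.6%, and CCAAT in 56 (82.4%) against 41%. By class, the octamer was found in 7 of 14 H2B and 6 of 17 H2A genes of the clusters and in 0 of 10 H3, 0 of 11 H4 and 0 of 10 linker H1 genes. CCAAT was present in all 17 H2A, all 14 H2B and all 10 H3 genes of the clusters with an entry, against 3 of 11 H4 genes.

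Depth was between 16076010 and 23132312 reads assigned to genes per library. Levels are normalised read counts (CPM, the reads of a gene scaled to a common library total), with library sizes scaled by edgeR's trimmed mean of M values (TMM). The labelled cell types carried their markers. The summed level of 10 astrocyte markers was 36950 to 52380 CPM in astrocytes and 998.6 to 1570 CPM in ECs, and that of 10 endothelial markers 105.5 to 176.7 against 13300 to 16550 CPM. Wild-type animal 5 stood apart in markers of ependyma and choroid plexus (1674 CPM in its astrocytes and 5031 CPM in its ECs, against 10.9 to 1037 CPM in the other 14 libraries), and wild-type animal 9 was the highest in oligodendrocyte markers in both cell types (2957 and 3210 CPM). *Hmgb1* averaged 42.5 CPM in mutant and 108 CPM in wild-type astrocytes, 39.3% of the wild-type level (exact two-sided permutation test, p = 0.0286, the smallest that 4 against 4 libraries allow). In ECs, which do not carry the deletion, the means were 179 and 187 CPM (exact permutation p = 0.371). In each genotype, 2 animals had Y-linked transcripts (5 and 9, 2 and 13) and 2 did not.

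Of the 80 genes, 10 had no read in any library, and only 19 averaged 1 CPM or more. The 10 without reads were *H2ac1*, *H2ac11*, *H2ac18*, *H2ac19*, *H2ac24*, *H2bc1*, *H2bc18*, *H2bc24*, *H3c13* and *H3c14*. With 0 reads, 3 reads could have gone unseen, which allows up to 0.1325 to 0.1799 CPM depending on the library. A total of 379398 reads fell on the set, of which 351681 were on the 12 genes outside the clusters and 27717 on the 68 cluster genes. The 2 H3.3 genes alone held 200647 reads.

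Among cluster genes, the annotated exon past the stem-loop went with the level in CPM, which is not scaled for gene length. Of the 66 cluster genes holding the element, 28 had at least 100 annotated exonic bases past it, and these had a median of 0.356 CPM, with 9 at 1 CPM or above and 2 without reads. The other 38 had a median of 0.0411 CPM, the highest being *H4c8* at 0.639 CPM, and 8 had no reads. They held 841 reads in all, against 23628 for the former. Exon past the stem-loop also adds to gene length. Per kilobase of exon, *H4c8* stood at 1.36 CPM. Of the 9 genes at 1 CPM or above, *H3c15* (1.31), *H2ac6* (0.430) and *H2bc6* (0.391) lay below that per kilobase and the others above it. Sequence identity between copies moved with the same split: the median share of exonic 50-base stretches found once in the genome was 77.8% for the former and 34.9% for the latter, and 30 cluster genes with under 50% unique stretches held 849 reads in all. Reads that match several copies may not have been counted, and the part of gene length, exon past the stem-loop or sequence identity in these levels was not tested. Beyond these 66, *H2ac22* and *H2bc21* held no match, and *H2bc21* had 3244 of their 3248 reads.

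**Figure D1:**
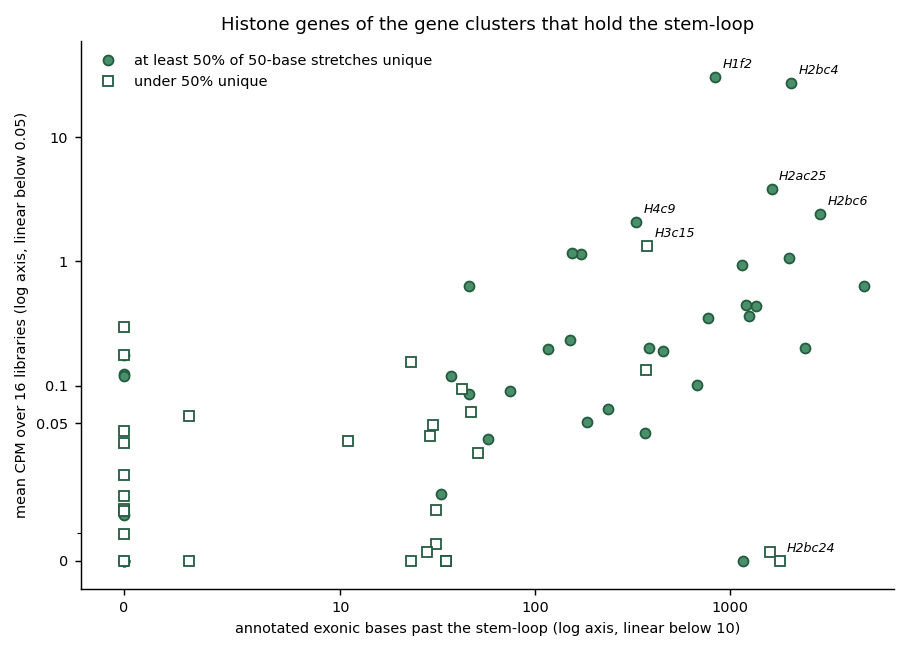
Mean level over 16 libraries (CPM, vertical axis) against the annotated exonic bases past the stem-loop (horizontal axis) for the 66 cluster genes that hold the element. Each point is a gene, and filled points have at least 50% unique 50-base stretches. Every gene at 1 CPM or above lies to the right of 100 bases, while *H2bc24*, also far to the right, has no reads. Levels are not scaled for gene length.

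*H3f3b* was the most abundant member, and both H3.3 genes were higher in ECs than in astrocytes. *H3f3b* (chr11:115912738-115918788, minus strand) and *H3f3a* (chr1:180628051-180642178, minus strand) encode the same H3.3 protein. In astrocytes *H3f3b* stood at 241, 255.6, 344 and 347 CPM in wild types and 291, 295, 373 and 405 CPM in mutants. Endothelial libraries held 586, 859.9, 604 and 668.5 CPM in wild types and 681, 736, 669 and 697 CPM in mutants. All 8 EC libraries were above all 8 astrocyte libraries, and the spread among astrocytes followed the presence of Y-linked transcripts, with 241 to 295 CPM in the 4 animals that had them and 344 to 405 CPM in the 4 that did not. The difference between EC and astrocytes was 1.21 on the log2 scale (SE 0.17, edgeR adjusted p = 0.000141) in wild types and 1.06 (SE 0.12, edgeR adjusted p = 2.08e-05) in mutants.

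For *H3f3a* the astrocyte libraries held 77.1, 78.2, 106 and 91.1 CPM in wild types and 86.55, 90.2, 103 and 106 CPM in mutants. The EC libraries held 171, 196, 159.9 and 161 CPM in wild types and 168, 169, 159 and 154 CPM in mutants. Again no EC library fell among the astrocytes. ECs exceeded astrocytes by 0.98 on the log2 scale (SE 0.12, edgeR adjusted p = 4.54e-05) in wild types and 0.79 (SE 0.08, edgeR adjusted p = 1.14e-05) in mutants. Per kilobase of exon, *H3f3b* was the more abundant of the pair in all groups, by 6.84 ± 0.613 (SD, n = 4) times in wild-type astrocytes, 7.16 ± 0.506 times in mutant astrocytes, 7.998 ± 0.865 times in wild-type ECs and 8.71 ± 0.423 times in mutant ECs. In bulk samples, fewer cells of a type and less RNA per cell cannot be told apart.

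Reads on clustered H3 genes were few beside H3.3, which held on average 99.3% of all H3 reads in wild-type astrocytes and 99.8% in wild-type ECs. The most abundant of them, *H3c15* (chr3:96145424-96146443, minus strand), had a level that differed between the cell types in the opposite direction. It was counted 32, 32, 38 and 41 times in wild-type astrocytes and 47, 48, 43 and 79 times in mutant astrocytes. In ECs the reads numbered 8, 7, 6 and 9 in wild types and 9, 9, 3 and 4 in mutants. The astrocyte libraries were all above the EC libraries. In CPM the means were 2.00 ± 0.198 (SD, n = 4) and 2.67 ± 0.593 in wild-type and mutant astrocytes and 0.379 ± 0.0490 and 0.298 ± 0.125 in the matching ECs. The log2 difference of EC against astrocytes was -2.37 (SE 0.22, edgeR adjusted p = 6.51e-06) in wild types and -3.07 (SE 0.31, edgeR adjusted p = 8.54e-06) in mutants, the lowest of any histone gene tested in both. The gene passed the filter on low counts through its astrocyte libraries alone, and it was not tested between EC genotypes. Only 36.5% of its 50-base stretches are unique, so its reads may be shared with other H3 genes. The next H3 gene by level, *H3c4*, lay between 0.0442 and 1.59 CPM over all libraries.

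The linker histones were led by *H1f0* (chr15:78912650-78914704, plus strand), which encodes H1.0, the form known from cells that have left the cycle. Its level in wild-type astrocytes was 103.5, 99.1, 137 and 169 CPM, and 113, 92.8, 121 and 133 CPM in mutant astrocytes. ECs held 205, 183, 240.3 and 336 CPM in wild types and 210.5, 206, 240.4 and 236 CPM in mutants. All EC libraries were above all astrocyte libraries, and within ECs the 4 animals with Y-linked transcripts (183 to 210.5 CPM) did not overlap the 4 without (236 to 336 CPM). The difference was 0.94 on the log2 scale (SE 0.23, edgeR adjusted p = 0.00410) in wild types and 0.99 (SE 0.12, edgeR adjusted p = 2.49e-05) in mutants. *H1f0* supplied 76.9% of linker histone reads in wild-type astrocytes and 83.7% in wild-type ECs.

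*H1f2* (chr13:23922791-23924350, plus strand), a linker histone of the clusters, had the highest mean of any cluster gene. Its wild-type astrocytes held 22.9, 28.6, 27.1 and 30.05 CPM and mutant astrocytes 41.5, 26.3, 35.1 and 36.4 CPM. Its ECs held 28.6, 49.1, 22.3 and 30.0 CPM in wild types and 31.2, 29.8, 30.0 and 22.6 CPM in mutants. The cell types overlapped, and wild-type animal 9 gave the highest EC value. The log2 difference was 0.28 (SE 0.22, edgeR adjusted p = 0.277) in wild types and -0.26 (SE 0.14, edgeR adjusted p = 0.128) in mutants. In mutants *H1f2* was called lower in ECs without animal 13 and within the animals without Y-linked transcripts.

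Of the remaining linker histones, *H1f4*, also of the clusters, was lower in ECs. It ranged from 1.03 to 1.68 CPM in wild-type astrocytes, 0.973 to 2.385 CPM in mutant astrocytes, 0.140 to 0.962 CPM in wild-type ECs and 0.265 to 0.499 CPM in mutant ECs, with no overlap between the cell types in either genotype. The log2 difference of -1.83 (SE 0.35, edgeR adjusted p = 0.000813) passed the test in mutants, and that of -1.08 (SE 0.45, edgeR adjusted p = 0.0531) in wild types did not. With the animal as a block, the wild-type difference was -1.17 and passed (edgeR adjusted p = 0.0248), as it did with limma-voom (0.0245), the length and GC offset (0.0351) and all 16 libraries (0.0286) and without animal 9 (0.0482). For *H1f3*, also of the clusters, the wild-type difference of 1.18 (SE 0.49, edgeR adjusted p = 0.0510) lay near the threshold. It passed with the block (1.17, edgeR adjusted p = 0.0475), with the length and GC offset (0.0341) and narrowly under 3 further settings, and without animal 9 its adjusted p was 0.259. The wild-type values of *H1f3* overlapped, at 0.165 to 0.681 CPM in astrocytes and 0.466 to 1.39 CPM in ECs. *H1f4* shares exonic bases with the longer gene *H2bc6* on the same strand, so reads there may belong to either. In both genotypes *H1f4* passed the filter on low counts through its astrocyte libraries, so the filter favoured a lower level in ECs.

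The H2A variants differed among themselves. H2A.Z, which marks promoters of active genes, is made from a pair of genes. *H2az1* (chr3:137570072-137572690, plus strand) stood at 51.0, 59.7, 87.3 and 68.4 CPM in wild-type astrocytes and 60.7, 71.8, 79.8 and 81.8 CPM in mutant astrocytes. In ECs it stood at 162.5, 213.5, 168 and 187 CPM in wild types and 173, 178, 171.5 and 141 CPM in mutants. No astrocyte library reached the EC range. The log2 difference was 1.47 (SE 0.17, edgeR adjusted p = 2.73e-05) in wild types and 1.21 (SE 0.11, edgeR adjusted p = 4.32e-06) in mutants, the largest positive difference among the tested histone genes in both. Of the 50-base stretches of *H2az1*, 63.7% are unique, so some of its reads may not have been counted.

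Its partner *H2az2* (chr11:6371231-6394481, minus strand) held 54.0, 54.4, 79.7 and 68.0 CPM in wild-type astrocytes and 65.0, 69.1, 77.2 and 83.8 CPM in mutant astrocytes. EC levels were 70.1, 65.3, 57.25 and 63.1 CPM in wild types and 62.1, 65.9, 67.5 and 59.6 CPM in mutants. The EC values lay within the astrocyte range, and the log2 difference was 0.01 (SE 0.13, edgeR adjusted p = 0.940) in wild types and -0.18 (SE 0.09, edgeR adjusted p = 0.105) in mutants. Within the wild types, *H2az2* was called higher in ECs among animals with Y-linked transcripts and lower among those without. It was also called lower in ECs within the mutants without them. The share of *H2az1* among H2A.Z reads was 50.8% ± 1.81 (SD, n = 4) in wild-type astrocytes and 73.9% ± 2.85 in wild-type ECs, with mutant means of 49.9% and 72.2%. Unique stretches make up 98.4% of *H2az2* against 63.7% of *H2az1*, so uncounted reads may affect this share.

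H2A.X, the variant phosphorylated around DNA breaks, was also higher in ECs. *H2ax* (chr9:44245991-44247374, plus strand) held 11.8, 15.35, 20.3 and 21.15 CPM in wild-type astrocytes and 12.3, 15.0, 19.8 and 20.7 CPM in mutant astrocytes. The ECs held 22.8, 26.7, 29.6 and 32.5 CPM in wild types and 21.3, 25.3, 25 and 19.3 CPM in mutants. The wild-type groups did not overlap, while in mutants the EC library of animal 21 fell below the astrocytes of animals 18 and 21. For *H2ax* the log2 difference was 0.72 (SE 0.20, edgeR adjusted p = 0.00763) in wild types and 0.45 (SE 0.17, edgeR adjusted p = 0.0327) in mutants. The mutant call was lost without animal 2 (adjusted p = 0.0705) or 13 (0.168), and within the mutants without Y-linked transcripts the difference fell to 0.18 (adjusted p = 0.290).

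MacroH2A, an H2A with a large extra domain linked to repressed chromatin, did not pass the test in the main fit of either genotype. *Macroh2a1* (chr13:56221111-56291059, minus strand) held 70.1, 69.3, 66.0 and 66.2 CPM in wild-type astrocytes and 66.9, 72.0, 71.7 and 70.03 CPM in wild-type ECs. The mutant values were 74.5, 76.0, 78.0 and 71.0 CPM in astrocytes and 68.25, 68.85, 78.0 and 68.3 CPM in ECs. These levels overlapped between the cell types, and the differences were 0.06 (SE 0.06, edgeR adjusted p = 0.392) and -0.04 (SE 0.07, edgeR adjusted p = 0.600) on the log2 scale. *Macroh2a2*, 14.7 ± 1.99 CPM (SD, n = 4) in wild-type astrocytes and 13.5 ± 4.37 CPM in wild-type ECs, supplied the smaller share of macroH2A reads in all groups. With a length and GC offset, *Macroh2a1* was called higher in wild-type ECs. *Macroh2a2* was called lower in mutant ECs with that offset and with *Xist* as covariate.

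Of the 5 H2B genes of the clusters that were tested, the 3 most abundant were lower in ECs. *H2bc4* (chr13:23867631-23878163, plus strand) held 33.6, 36.9, 39.1 and 37.7 CPM in wild-type astrocytes and 47.4, 39.5, 46.0 and 46.7 CPM in mutant astrocytes. In ECs its levels were 13.1, 21.7, 11.3 and 15.2 CPM in wild types and 12.7, 13.01, 11.97 and 10.8 CPM in mutants. Every EC library lay below every astrocyte library, with wild-type animal 9 the highest of the ECs. The log2 difference was -1.25 (SE 0.19, edgeR adjusted p = 0.000181) in wild types and -1.85 (SE 0.09, edgeR adjusted p = 3.70e-08) in mutants, where it had the smallest p of the histone genes. *H2bc4* shares exonic bases with *H2ac6* on the opposite strand, and the strand setting of the counting was not given in the sources used here.

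*H2bc21* (chr3:96128435-96131054, plus strand), the only abundant cluster gene without a match to the stem-loop form searched, followed the same direction. It held 10.6, 12.4, 14.3 and 16.65 CPM in wild-type astrocytes and 14.4, 12.7, 12.1 and 17.4 CPM in mutant astrocytes. The EC libraries lay between 6.10 and 7.62 CPM in both genotypes, below all astrocytes. On the log2 scale the difference was -0.97 (SE 0.17, edgeR adjusted p = 0.000470) in wild types and -0.93 (SE 0.13, edgeR adjusted p = 8.69e-05) in mutants. *H2bc6* was lower by a similar size (-1.20, SE 0.39, edgeR adjusted p = 0.0184 in wild types and -1.41, SE 0.24, edgeR adjusted p = 0.000377 in mutants). Its astrocyte levels were 2.18 to 4.86 CPM and its EC levels 0.864 to 2.55 CPM, and its wild-type call was lost without animal 5 (adjusted p = 0.0702) or 22 (0.0605) and within the wild types with Y-linked transcripts (0.0652). The remaining genes, *H2bc8* and *H2bc27*, averaged 1.17 and 1.15 CPM over the 16 libraries. Their differences of -0.06 and -0.61 in wild types (edgeR adjusted p = 0.856 and 0.407) and -0.62 and -0.85 in mutants (edgeR adjusted p = 0.134 and 0.0585) did not pass. In mutants both were called lower in ECs with the length and GC offset and within the animals without Y-linked transcripts. So was *H2bc8* with limma-voom, and *H2bc27* with the *Xist* covariate and without animal 2.

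The clustered H2A genes that were measurable were also lower in ECs. *H2ac25* (chr11:58845511-58847656, plus strand) held 4.67, 4.92, 6.70 and 5.65 CPM in wild-type astrocytes and 4.49, 3.599, 4.43 and 5.22 CPM in mutant astrocytes. ECs held 2.10, 3.27, 2.44 and 2.89 CPM in wild types and 2.12, 2.63, 3.35 and 2.77 CPM in mutants. The cell types did not overlap. The log2 difference was -1.02 (SE 0.21, edgeR adjusted p = 0.00142) in wild types, where the call was lost within the animals with Y-linked transcripts (adjusted p = 0.0667), and -0.67 (SE 0.20, edgeR adjusted p = 0.0108) in mutants, where it was lost without animal 2 (0.0530) or 21 (0.0555) and within the animals without Y-linked transcripts (0.0514). The gene shares exonic bases with *Trim17* on the same strand.

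*H2ac6* stood at 0.9655 to 1.885 CPM in astrocytes and 0.403 to 1.11 CPM in ECs of both genotypes, and within each genotype the cell types did not overlap. Its log2 difference was -0.88 (SE 0.33, edgeR adjusted p = 0.0353) in wild types and -1.05 (SE 0.31, edgeR adjusted p = 0.00964) in mutants. The wild-type call was lost without animal 5 (adjusted p = 0.0645), 19 (0.141) or 22 (0.0817), with no filter on low counts (0.0673) and within the animals with Y-linked transcripts (0.313). In mutants it was lost without animal 21 (0.0656) and within the animals with Y-linked transcripts (0.164). In both genotypes *H2ac6* passed the filter on low counts through its astrocyte libraries, so the filter favoured this direction.

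Of the 13 clustered H4 genes 2 were tested, and neither passed the test between cell types. *H4c9* (chr13:22224806-22225532, minus strand), the most abundant, averaged 1.81 ± 0.424 CPM (SD, n = 4) in wild-type astrocytes and 2.30 ± 0.432 CPM in wild-type ECs, a log2 difference of 0.36 (SE 0.24, edgeR adjusted p = 0.200). In mutants the means were 2.14 ± 0.443 and 2.04 ± 0.570 CPM, a difference of -0.03 (SE 0.26, edgeR adjusted p = 0.922). *H4c8* ranged from 0.105 to 0.795 CPM in astrocytes and 0.536 to 1.18 CPM in ECs. Its wild-type difference of 0.98 (SE 0.48) had an edgeR adjusted p of 0.0907, and passed with the *Xist* covariate (0.0421), with all 16 libraries (0.0497) and without animal 9 (0.0310). *H4c8* passed the filter on low counts through its EC libraries, so the filter favoured this direction and nothing is concluded from these calls.

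**Figure D2:**
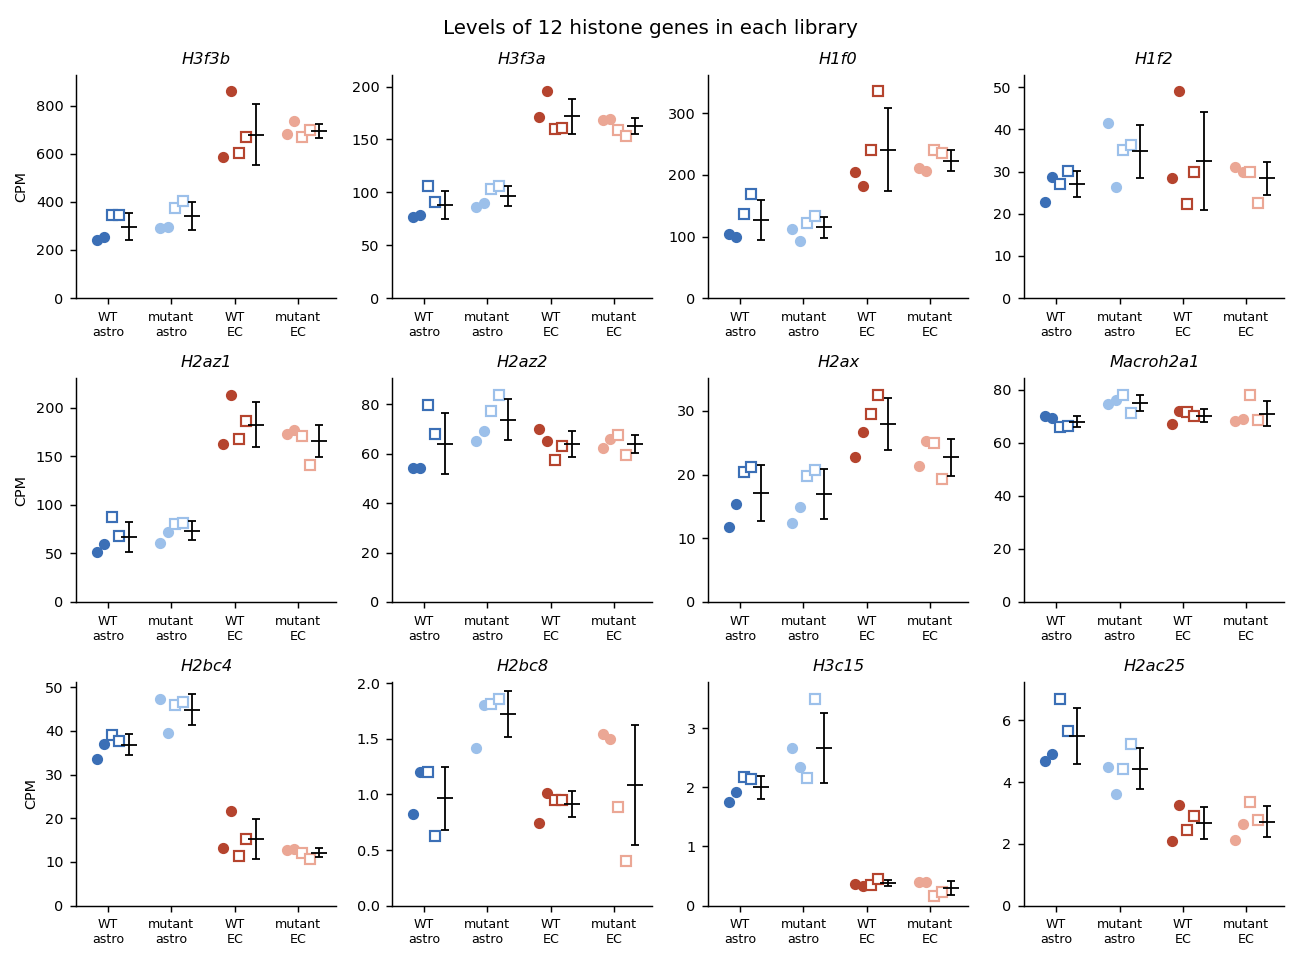
Level in CPM (vertical axes, from 0) of 12 histone genes in each library, by group. Filled circles are animals with Y-linked transcripts and open squares animals without, and the black bars give the mean ± SD over 4 animals. *H3f3b*, *H3f3a*, *H1f0* and *H2az1* lie higher in all EC libraries, and *H2bc4*, *H3c15* and *H2ac25* lie lower. In *H2bc4*, *H2bc8* and *Macroh2a1* all mutant astrocyte libraries lie above all wild-type ones, as in 3.22% of all genes. None of these genes was called between genotypes.

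Among the members that passed the filter on low counts, the genes higher in ECs and the genes lower in ECs lay in different places. In wild types 22 histone genes passed the filter, and 11 passed the test at an adjusted p under 0.05, a share below the 76.4% of all 16336 genes tested. The 5 that were higher in ECs (*H1f0*, *H2ax*, *H2az1*, *H3f3a* and *H3f3b*; 38.3% of all genes were higher) all lie outside the clusters, and the 6 that were lower (*H3c15*, *H2bc4*, *H2bc21*, *H2ac25*, *H2bc6* and *H2ac6*; 38.2% of all genes were lower) all lie in the clusters. Of the 6, *H3c15* and *H2ac6* passed the filter through their astrocyte libraries, so the filter favoured the direction of their calls, which are not read as support. The other lower genes reached the filter in their EC libraries as well. The median log2 difference was 0.04 over the 22, beside 0.02 over all genes. It was -0.88 over the 13 cluster genes, of which 9 were below 0, and 0.72 over the 9 genes outside the clusters, of which 8 were above 0. Groups did not overlap for 5 higher and 6 lower members, against 36% and 36.6% of all genes tested.

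The mutant animals, which share no library with the wild types, gave 12 of 22 members called, against 77.9% of 16508 genes. The same 5 genes were higher (38.8% of all genes) and 7 were lower, the 6 above and *H1f4* (39.1% of all genes). Here *H3c15*, *H2ac6* and *H1f4* passed the filter through their astrocyte libraries, so their calls are not read as support either. They remain in the medians of the cluster genes. The median was -0.22 over the members and 0.01 over all genes, -0.85 over 13 cluster genes and 0.45 over the 9 outside the clusters. Groups did not overlap for 4 higher and 7 lower members, against 35.8% and 37.8% of all genes. In both genotypes 13 members had an unadjusted p under 0.05.

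The cluster genes under the filter were split differently. With no filter on low counts, 56 cluster genes were fitted in wild types, of which 42 were above 0, with a median of 0.99, and 4 were called higher and 6 lower in ECs. The 43 of them not tested above had 38 above 0 and a median of 1.32. In mutants 55 were fitted, 28 above 0, with a median of 0.00, and 4 were called higher and 11 lower, and the 42 not tested above had 26 above 0 and a median of 0.50. Fitted values at such low counts depend on the prior count. As summed levels, the 54 cluster genes tested in no comparison stood at 3.19 ± 0.678 CPM (SD, n = 4) in wild-type astrocytes, 3.98 ± 0.434 CPM in mutant astrocytes, 6.56 ± 1.86 CPM in wild-type ECs and 4.78 ± 1.61 CPM in mutant ECs. The cell types did not overlap in wild types (2.80 to 4.20 and 4.705 to 9.14 CPM) and overlapped in mutants (3.52 to 4.38 and 3.46 to 7.12 CPM). *H2bc9*, named after its values were seen, was called higher in ECs within the animals with Y-linked transcripts (2.27, edgeR adjusted p = 0.0222 in wild types and 1.82, edgeR adjusted p = 0.0225 in mutants). There it had 4 reads in each astrocyte library, and 15 and 32 in wild-type and 11 and 22 in mutant ECs. It passed the filter through the ECs alone, so the filter set the direction of these calls and nothing is concluded from them.

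**Figure D3:**
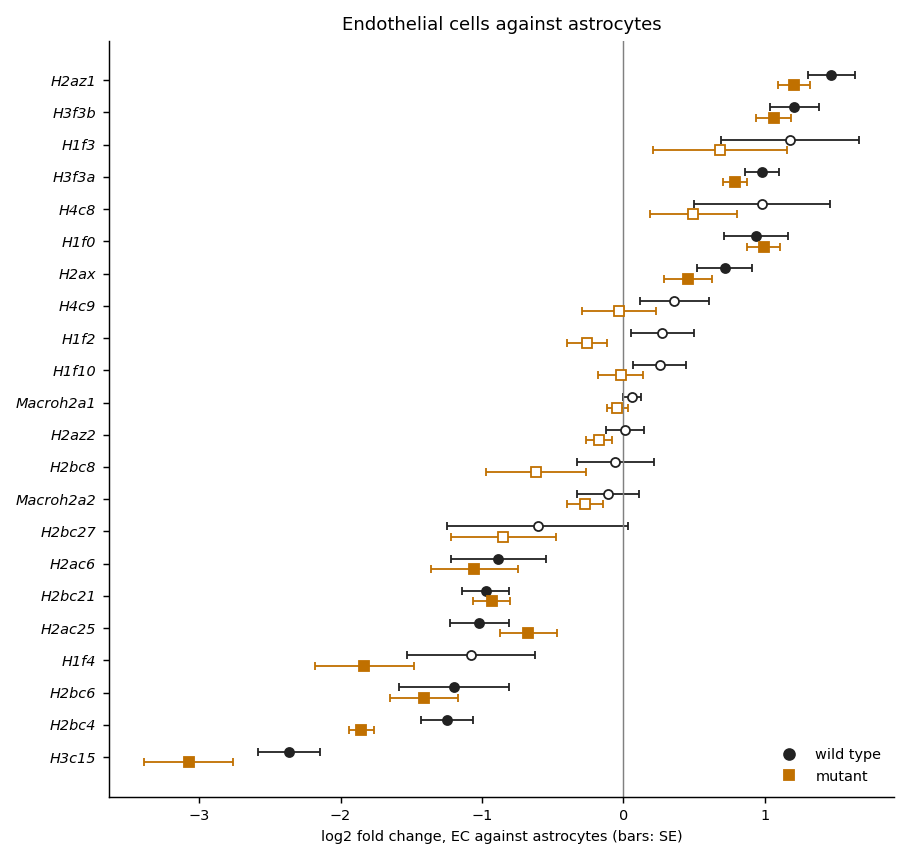
Log2 fold change of EC against astrocytes (horizontal axis) for the 22 histone genes tested, in wild types (circles) and mutants (squares). Bars are the standard error, and filled symbols have an edgeR adjusted p under 0.05. Filled symbols to the right are genes outside the clusters and those to the left are cluster genes, down to -3.07 for *H3c15* in mutants. *H3c15*, *H2ac6* and *H1f4* passed the filter through their astrocyte libraries, which favoured the left side for them.

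As summed levels, all histone genes together stood at 851 ± 134 CPM (SD, n = 4) in wild-type astrocytes, 934 ± 109 CPM in mutant astrocytes, 1534 ± 177 CPM in wild-type ECs and 1489 ± 40.3 CPM in mutant ECs. The mean summed level of the cluster genes ran the other way, at 99.8 ± 9.35, 118.5 ± 13.5, 73.2 ± 21.2 and 63.6 ± 7.94 CPM in the same order. The cell types overlapped in wild types (86.0 to 106.7 CPM in astrocytes and 58.6 to 104.2 CPM in ECs). In mutants they did not (99.9 to 129.1 and 52.6 to 71.6 CPM). The share of the cluster genes among histone reads was 11.9% and 12.8% in astrocytes and 4.72% and 4.26% in ECs. Without *H2bc4*, *H2bc21* and *H1f2* the cluster sum was 22.3 ± 3.005, 24.6 ± 2.58, 18.6 ± 5.28 and 15.8 ± 3.93 CPM in the same order, and the wild-type cell types overlapped (18.9 to 26.2 CPM in astrocytes and 13.2 to 25.9 CPM in ECs). Within the clusters, the genes with under 100 exonic bases past the stem-loop summed to 1.84 ± 0.908 and 2.71 ± 0.547 CPM in wild-type and mutant astrocytes and to 3.48 ± 0.845 and 2.68 ± 0.728 CPM in ECs.

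The gene lists that follow are read beside all genes tested, of which 38.3% were higher and 38.2% lower in wild-type ECs (38.8% and 39.1% in mutants) and 76.4% were called in either direction (77.9% in mutants). In wild types the called share was below this for the S-phase and proliferation genes (23 of 34), the H3 and H4 chaperones (10 of 16) and the H2A.Z complexes (7 of 12).

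Genes of DNA replication and proliferation, with which clustered histone transcripts are usually made, were higher in ECs. Of 34 tested S-phase and proliferation genes, 23 were higher in wild-type ECs and 0 lower, with a median log2 difference of 1.17, and 24 were higher and 1 lower in mutants, with a median of 1.03. *Mcm6*, a subunit of the replicative helicase, differed by 2.00 (edgeR adjusted p = 1.72e-05), *Cdc20*, an activator of the anaphase-promoting complex, by 1.95 (edgeR adjusted p = 0.000212) and *Tyms*, thymidylate synthase, by 1.48 (edgeR adjusted p = 0.000229) in wild types. The summed level of the list was 412.5 to 1006 CPM in astrocytes and 1112 to 1814 CPM in ECs. The cluster genes listed above as lower in ECs did not share this direction.

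Levels of the factors that make and mature histone transcripts were also mostly higher in ECs, 12 of 18 tested genes in wild types with 2 lower (median 0.42) and 10 of 18 in mutants with 2 lower (median 0.34). *Slbp*, which binds the stem-loop shown above, was higher by 0.80 (edgeR adjusted p = 0.000144), *Eri1*, a nuclease that trims the histone transcript end, by 1.05 (edgeR adjusted p = 7.28e-06) and *Upf1*, a helicase needed for histone mRNA decay, by 0.57 (edgeR adjusted p = 3.67e-05). In the fit within the wild types with Y-linked transcripts, 7 of the list were higher.

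Among the chaperones that carry histones, 9 of 16 for H3 and H4 were higher and 1 lower in wild-type ECs (median 0.45, and 10 and 0 in mutants, median 0.51). *Ubn1*, a subunit of the HIRA complex that deposits H3.3, differed by 1.32 (edgeR adjusted p = 2.68e-06), *Rbbp7*, a histone-binding WD40 protein, by 1.04 (edgeR adjusted p = 3.70e-05) and *Daxx*, an H3.3 chaperone, by 0.78 (edgeR adjusted p = 8.07e-05). Of 10 chaperones of H2A, H2B and linker histones, 8 were higher and 1 lower in both genotypes (medians 0.66 and 0.63). *Ptma*, prothymosin alpha, was higher by 1.99 (edgeR adjusted p = 8.83e-07) and *Nap1l4*, a nucleosome assembly protein, by 0.74 (edgeR adjusted p = 1.53e-05), while its relative *Nap1l5* differed by -3.51 (edgeR adjusted p = 2.20e-06).

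The complexes that exchange H2A.Z gave 6 higher and 1 lower of 12 in wild types (median 0.45) and 6 and 2 in mutants (median 0.24). *Vps72*, an H2A.Z-binding subunit, was higher by 1.58 (edgeR adjusted p = 3.06e-08) and *Actl6a*, an actin-related subunit, by 0.99 (edgeR adjusted p = 1.74e-05), whereas *Actr6*, another actin-related subunit, was lower, at -0.77 (edgeR adjusted p = 0.000258). Of 8 HMG genes, which encode further nucleosome-binding proteins, 6 were higher and 1 lower in wild types (median 0.63) and 4 and 1 in mutants (median 0.41). *Hmgb1* itself differed by 0.80 (edgeR adjusted p = 0.000266) between wild-type ECs and astrocytes, *Hmgb2* by 1.37 (edgeR adjusted p = 0.000463) and *Hmgn3* by -2.36 (edgeR adjusted p = 1.79e-08). The histone genes *Cenpa*, the centromeric H3 (1.56, edgeR adjusted p = 0.000104), and *H2aj* (0.75, edgeR adjusted p = 0.00291), which the naming rule does not take in, were higher as well.

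Other cell types moved with the same contrast. Markers of oligodendrocyte precursors summed to 2319 to 2864 CPM in astrocytes and 84.2 to 210.5 CPM in ECs, and neuronal markers to 448 to 550 and 41.4 to 55.5 CPM. Pericyte and smooth muscle markers ran the other way, at 415.9 to 1516 CPM in astrocytes and 2318 to 4666 CPM in ECs, as did those of microglia and macrophages, at 5.94 to 13.2 and 47.1 to 297 CPM. Their part in the histone differences was not tested. As a measure of transcripts without a poly(A) tail, which the preparation may capture unevenly, *Rn7sk* differed by 0.72 (edgeR adjusted p = 0.136) and *Rn18s-rs5* by -0.23 (edgeR adjusted p = 0.511) between wild-type ECs and astrocytes. Between genotypes *Rn18s-rs5* differed by -0.91 in astrocytes (edgeR adjusted p = 0.606) and -0.87 in ECs (edgeR adjusted p = 0.943). Its EC libraries held 1217 to 1558 CPM in mutants and 1927 to 3100 CPM in wild types. What this means for the histone genotype differences below was not tested.

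In astrocytes no histone gene passed the test between mutant and wild type, in a comparison in which 0.00631% of all genes (1 of 15850) did. Of 20 members tested, 3 had an unadjusted p under 0.05, beside 7.45% of all genes, and DESeq2 also called 0 members (123 of all genes). The wild-type libraries of this and the next comparison are those used in the cell type comparison above. The median log2 difference over the members was 0.13 and over all genes 0.01, with 14 above and 6 below 0. In 3 members every mutant astrocyte library lay above every wild-type one (*H2bc4*, *H2bc8* and *Macroh2a1*), where 3.22% of all genes did so, and in 0 members below, where 2.04% did.

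*H2bc8* (chr13:23755570-23756187, plus strand), whose promoter with the octamer is printed above, had the smallest p. It was counted 15, 20, 21 and 12 times in wild-type astrocytes and 25, 37, 36 and 42 times in mutant astrocytes, or 0.964 ± 0.285 and 1.72 ± 0.204 CPM (SD, n = 4). The mutant libraries were all above the wild types, and the log2 difference was 0.83 (SE 0.25, edgeR adjusted p = 0.523). It was 0.65 within the animals with Y-linked transcripts and 1.001 within those without.

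*H2bc4*, with the levels given above, averaged 36.8 ± 2.33 CPM (SD, n = 4) in wild-type and 44.9 ± 3.64 CPM in mutant astrocytes. The lowest mutant, animal 13 at 39.5 CPM, stood just above the highest wild type, animal 19 at 39.1 CPM. The log2 difference of 0.27 (SE 0.08, edgeR adjusted p = 0.523) was 0.27 and 0.26 within the 2 sets of animals with and without Y-linked transcripts. Over all alternatives its adjusted p ranged from 0.0769 to 0.891, and that of *H2bc8* from 0.125 to 0.858.

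*H1f2* averaged 27.2 ± 3.10 CPM in wild-type and 34.8 ± 6.30 CPM in mutant astrocytes, with mutant animal 13 inside the wild-type range. Its log2 difference was 0.35 (SE 0.14, edgeR adjusted p = 0.644). Among animals with Y-linked transcripts it was 0.37, and among those without 0.31. *Macroh2a1* averaged 67.9 ± 2.11 and 74.9 ± 2.93 CPM, a log2 difference of 0.13 (SE 0.06, edgeR adjusted p = 0.695). That difference was 0.08 and 0.16 within the sets. Without wild-type animal 22, 21 of 22 members tested were above 0.

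The sets of animals with and without Y-linked transcripts differed more than the genotypes for several members in astrocytes. Over both genotypes, *H2ax* lay at 11.8 to 15.35 CPM in the 4 animals with them and 19.8 to 21.15 CPM in the 4 without, *H1f0* at 92.8 to 113 and 121 to 169 CPM, and *H3f3a* at 77.1 to 90.2 and 91.1 to 106 CPM, none of which overlapped. *H1f10*, *H3f3b* and *Macroh2a2* did not overlap either. The share of all genes separated by these sets was not counted in either cell type, so this is not read as particular to histone genes. *H2bc4* overlapped (33.6 to 47.4 and 37.7 to 46.7 CPM), as did *H1f2* and *Macroh2a1*. The summed level of the S-phase and proliferation list was split in the same way, at 412.5 to 619 and 721 to 1006 CPM. Each set holds 2 animals per genotype, and the animals with Y-linked transcripts also carry the lower animal numbers. *Xist* split the sets too. On the scale log2(CPM + 1) it stood at 9.68 to 10.3 in the astrocytes of animals without Y-linked transcripts and 0.474 to 3.05 in those with them. Animal 5 gave the 3.05, and the other animals with Y-linked transcripts lay at 1.09 or below. What else sets the sets apart was not tested.

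Related genes did not pass the test in astrocytes either. In all 8 lists, 0 genes were called. The gene with the smallest p of each list was *Cdt1*, a replication licensing factor (-0.40, edgeR adjusted p = 0.832), *Upf1* (-0.21, edgeR adjusted p = 0.512), *Cabin1*, a subunit of the HIRA complex (-0.30, edgeR adjusted p = 0.548), *Ncl*, nucleolin (0.13, edgeR adjusted p = 0.893), *Vps72* (0.17, edgeR adjusted p = 0.656), *Hmgb1* (-1.36, SE 0.15, edgeR adjusted p = 0.0605), *H2aj* (0.23, edgeR adjusted p = 0.831) and *Rn18s-rs5* (-0.91, edgeR adjusted p = 0.606). The targeted gene thus missed the threshold in this test, and passed it with DESeq2 (adjusted p = 1.36e-12).

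In ECs 0 of 21 histone genes passed the test between genotypes, as did 0% of all 15750 genes. An unadjusted p under 0.05 was reached by 0 members and 826 of all genes, and DESeq2 called 0 members and 12 genes. The median was -0.13 over the members and 0.00 over all genes, with 7 above and 14 below 0. Mutant and wild-type libraries overlapped for all 21, while 1.2% of all genes were higher and 1.94% lower without overlap. *H2ax* had the smallest p, with 27.9 ± 4.13 CPM (SD, n = 4) in wild types and 22.7 ± 2.91 CPM in mutants (-0.28, SE 0.13, edgeR adjusted p = 0.943). *H1f10*, which encodes linker histone H1.10, held 8.34, 8.17, 10.2 and 12.7 CPM in wild types and 6.49, 7.34, 9.05 and 7.89 CPM in mutants.

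The *H1f10* ranges overlapped, and its log2 difference was -0.34 (SE 0.18, edgeR adjusted p = 0.943). *H2bc4* followed at -0.33 (SE 0.19, edgeR adjusted p = 0.943) and *H2az1* at -0.13 (SE 0.10, edgeR adjusted p = 0.953). Wild-type animal 9 gave the highest EC level of *H2bc4*, *H1f2*, *H2az1*, *H3f3a* and *H3f3b*. Without it, 11 members were above and 9 below 0, the median over the members was 0.03, and the *H2bc4* difference was -0.11.

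The genotype effects of the cell types were compared by their interaction. Of 23 histone genes, 0 passed the test, beside 0.0114% of all 17493 genes, and the unadjusted p was under 0.05 for 1 member and for 491 genes. By DESeq2 0 members and 13 genes were called. The effect in ECs minus that in astrocytes was below 0 for 20 members and above 0 for 3, with a median of -0.25, and 0.00 over all genes. *H2bc4* had the smallest p (-0.59, SE 0.21), followed by *H1f2* (-0.52, SE 0.28), *H3c15* (-0.70, SE 0.38) and *H3c4* (-1.40, SE 0.99), each with an edgeR adjusted p of 1.

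Single animals moved these interaction values. Without wild-type animal 9, the *H2bc4* value was -0.38 and that of *H1f2* -0.28, with 7 members above and 15 below 0. The *H3c4* value was -0.33 without mutant animal 2, whose astrocytes held 1.59 CPM against 0.201 to 0.9596 CPM in the other 7 astrocyte libraries. Within the sets with and without Y-linked transcripts, the *H2bc4* interaction was -0.71 and -0.47 and that of *H1f2* -0.72 and -0.30. *Hmgb1*, the one gene of the 8 lists to pass, had an interaction of 1.32 (edgeR adjusted p = 0.0100), a call lost without animal 2 (0.0653), 13 (0.106), 18 (0.130), 19 (0.0834) or 22 (0.0715).

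**Figure D4:**
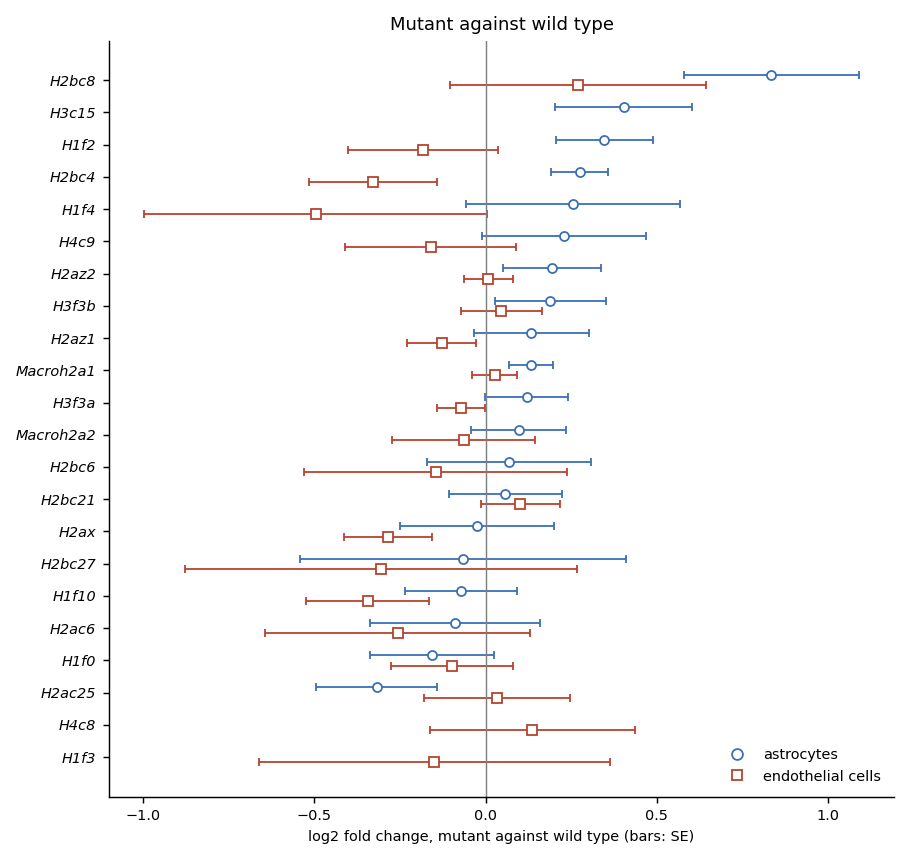
Log2 fold change of mutant against wild type (horizontal axis) for the histone genes tested, in astrocytes (circles, 20 genes) and ECs (squares, 21 genes). Bars are the standard error, and open symbols mark that no gene had an edgeR adjusted p under 0.05. *H2bc8* lies highest in astrocytes at 0.83, and *H2bc4* and *H1f2* lie above 0 in astrocytes and below 0 in ECs.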

How the data were processed

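The authors trimmed reads with the FASTX-toolkit, aligned them to GRCm39 and counted them per gene with STAR 2.7.9a, and deposited raw read counts for 16 libraries. DESeq2 is a further tool listed by the submitters' processing notes. The labels name an mRNA library kit and the paper's methods a directional one, so whether poly(A) transcripts were selected, and the strand setting and annotation release, are not given in the sources used here. Of 56980 identifiers, 56236 were found in a GENCODE annotation of GRCm39, the source of symbols, coordinates and exonic lengths, and 8 symbols that fit the naming rule but are not protein-coding were left out. Of the 80 members, 40 share exonic bases with another gene, 10 of them on the same strand.

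Groups came from the labels. Libraries of a group differed by more than sampling noise (24 pairs, chi-square per gene 8.19 to 57.7 over genes with at least 20 summed reads), so none were merged. Each comparison was fitted over all genes in R 4.3.3 with edgeR 4.0.16 (filterByExpr, TMM, quasi-likelihood test, Benjamini-Hochberg adjustment, threshold 0.05), with the 8 libraries compared, or all 16 for the interaction, and no covariate. Unless replaced, adjusted p-values are from this test. The scripts were tested on simulated counts with 200 genes changed. In the astrocyte genotype setting, edgeR recovered 66% of log2 changes of 1 and 85% of those of 2, and 4.43% of its calls were false. DESeq2 recovered 76% and 88%, and 23.4% of its calls were false. Between wild-type cell types the false shares were 5.52% with edgeR and 22.2% with DESeq2. Smaller changes were not simulated. Alternatives were DESeq2 1.42.0, limma-voom (limma 3.58.1), RLE scaling, no filter or at least 1 CPM in 4 libraries, *Xist* as covariate, a length and GC offset, all 16 libraries, animals with and without Y-linked transcripts, leaving out each animal, and the animal as a block. The animal number in the labels pairs the astrocyte and EC libraries of 1 mouse, and their deviations from the group means correlated at 0.172 to 0.461 over 11769 genes.

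Named members were the 2 most abundant of each class, up to 8 called per direction in each cell type comparison and the 4 with the smallest p in each genotype comparison and the interaction, and *H1f3* was named for its call under the block. From each related list the 3 genes with the smallest p between wild-type cell types and the 1 between astrocyte genotypes were named. Members and lists were chosen with earlier results of these data known. Zero-read limits cover counting error only.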

Additional observations from a re-analysis of the deposited data

Results flagged for a closer look

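Among the 76 sets of 4 libraries tested (a named histone gene in a group), 3 held a library far from the other 3, where chance gives about 1 in 20. All were mutant ECs. *H1f2* stood at 22.6 CPM in animal 21, with 29.8 to 31.2 CPM in the others. *H2az1* stood at 141 CPM in the same animal, with 171.5 to 178 CPM in the others. *Macroh2a1* stood at 78.0 CPM in animal 18, with 68.25 to 68.85 CPM in the others.

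The genotype effect on *Hmgb1* differed between the cell types by 1.32 on the log2 scale (ECs minus astrocytes), as tested by the interaction term.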

How the results depend on the processing

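The number of histone genes called between genotypes was 0 under every alternative run, in astrocytes, in ECs and for the interaction. Between cell types, higher members in ECs rose from 5 to 10 in each genotype with no filter on low counts, and lower members in mutants from 7 to 11. Within the animals with Y-linked transcripts, higher members in wild types numbered 7 in place of 5 and lower ones 3 in place of 6, and with the length and GC offset there were 7 and 7 in wild types and 5 and 10 in mutants. Within those without, mutants gave 4 and 10. Leaving out an animal gave 5 to 6 higher and 4 to 7 lower in wild types and 4 to 5 and 5 to 8 in mutants.

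Over all genes, the count of calls between astrocyte genotypes was 1, and it was 123 with DESeq2, 3 with no filter, 2 with limma-voom, 193 with the *Xist* covariate, 2 with the length and GC offset, 6 with all 16 libraries, 0 within the animals with Y-linked transcripts, 7 within those without and 1 without any one animal. In ECs it was 0, and 12 with DESeq2 and 1 with the *Xist* covariate. For the interaction it was 2, with 13 by DESeq2, 0 within the animals with Y-linked transcripts, 3 with the animal block and 1 to 3 when an animal was left out (1 without animal 2, 18, 19 or 22). The cause of these shifts was not tested.

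The animal block added *H1f3* and *H1f4* to the wild-type cell type calls (6 higher and 7 lower), left 5 and 7 in mutants, and changed no other histone call. The EC genotype difference of *Hmgb1* turned from -0.05 to 0.0256 within the animals with Y-linked transcripts (adjusted p = 0.996). Over the genes followed singly under the alternatives (*Hmgb1* and the histone genes called or with the smallest p), 638 values kept direction and side of the threshold, 23 lost a call and 7 gained one, all 7 of *Hmgb1* in astrocytes. Members under about 1 CPM rest on few reads per library, which limits what could be detected for the 57 members that were not tested (1532 reads in all).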
